A study of Mus musculus with 24 samples.

Results

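The genes *Sez6l*, *Sez6* and *Sez6l2* form one small family, and they were described here through the differentially 5-hydroxymethylated regions (DhMRs) that lay inside them or had been assigned to them. A DhMR belonged to a gene when it lay wholly inside the gene's span on GRCm38, or when the deposited list gave it that gene's Ensembl ID. Of the 20726 DhMRs in both lists, 52 met this rule, 46 for *Sez6l*, 6 for *Sez6* and 0 for *Sez6l2*. All 52 were on the list of regions with more 5-hydroxymethylcytosine (5hmC) in Wt25 and 0 were on the list for AA10. The genes were chosen with these lists in view, that is, they were selected on the number and position of these DhMRs. Their counts are therefore descriptions and none was tested.

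Both lines are mouse embryonic stem cells (ESCs) of mixed C57BL/6J-129V background whose own *Tet1*, *Tet2* and *Tet3* had been knocked out. They carry human Tet3 from a lentivirus, wild-type in Wt25 and phosphor-mutant in AA10. Each line is 1 puromycin-selected clone, and the 2 clones expressed similar levels of Tet3 protein by the labels' treatment protocol. With 1 clone of each, a difference between the proteins and a difference between the clones cannot be told apart. 5hmC was measured by immunoprecipitation of DNA with an antibody to 5hmC followed by sequencing (5hmC-DIP), with 3 libraries for each line, to find where the lines differ. The lists name 12096 regions that were higher in Wt25 and 8630 that were higher in AA10. They hold positions and a gene ID and pool the libraries, so no level, fold change or spread between replicates can be given for a region, and the read depth behind each region is unknown from them.

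Tet enzymes oxidise 5-methylcytosine to 5hmC, mostly where a cytosine is followed by a guanine (CpG), and 5hmC is especially abundant in neurons. *Sez6* (seizure related 6), *Sez6l* (Sez6-like) and *Sez6l2* (Sez6-like 2) encode transmembrane proteins found mainly in neurons, whose outer part is built of CUB and sushi domains. *Sez6* and *Sez6l* proteins are cut by the protease BACE1, and the family acts in dendrite growth and synapse formation.

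The following stretches are DhMRs as listed, 198 bp each, on the plus strand of GRCm38.p6 (RefSeq) from 5′ to 3′, with each CpG in capitals. The first 5 mark the edges of the dense group of DhMRs at *Sez6l*, a DhMR with its highest CpG number inside the gene, and the sides of the start site. Others of the group inside the gene hold as many CpG, and the one shown lies nearest the start site. The last 2 are the *Sez6* DhMR in coding sequence and 1 of a touching pair in an intron.
First DhMR of the dense group, *Sez6l* intron 1, chr5:112544803-112545000: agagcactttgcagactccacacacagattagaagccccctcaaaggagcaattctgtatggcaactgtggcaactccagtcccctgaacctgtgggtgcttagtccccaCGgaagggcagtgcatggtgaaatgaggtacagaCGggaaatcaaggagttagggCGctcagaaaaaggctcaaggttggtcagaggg
DhMR of the dense group in *Sez6l* intron 1, 8 CpG, chr5:112574403-112574600: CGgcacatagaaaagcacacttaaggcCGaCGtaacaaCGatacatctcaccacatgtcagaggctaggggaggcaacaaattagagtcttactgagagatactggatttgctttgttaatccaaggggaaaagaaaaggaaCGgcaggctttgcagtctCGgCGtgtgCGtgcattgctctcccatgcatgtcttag
Last DhMR before the *Sez6l* start site, chr5:112575803-112576000: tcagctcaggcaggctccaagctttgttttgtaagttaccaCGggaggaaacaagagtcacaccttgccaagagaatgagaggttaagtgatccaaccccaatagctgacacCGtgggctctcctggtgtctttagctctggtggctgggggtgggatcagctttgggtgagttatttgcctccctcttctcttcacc
First DhMR upstream of both gene models, chr5:112580603-112580800: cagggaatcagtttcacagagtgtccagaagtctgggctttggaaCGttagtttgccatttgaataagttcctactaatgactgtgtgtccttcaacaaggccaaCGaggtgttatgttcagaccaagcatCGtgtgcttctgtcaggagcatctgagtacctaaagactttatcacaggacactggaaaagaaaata
Last DhMR of the dense group, chr5:112620403-112620600: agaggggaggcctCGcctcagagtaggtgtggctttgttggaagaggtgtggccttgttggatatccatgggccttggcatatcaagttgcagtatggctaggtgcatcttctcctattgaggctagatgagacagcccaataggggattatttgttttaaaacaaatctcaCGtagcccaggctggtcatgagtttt
*Sez6* coding exon 2, chr11:77953803-77954000: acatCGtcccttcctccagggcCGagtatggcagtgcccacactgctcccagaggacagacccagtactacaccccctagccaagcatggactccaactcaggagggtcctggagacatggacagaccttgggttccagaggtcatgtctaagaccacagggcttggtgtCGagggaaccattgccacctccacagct
*Sez6* intron 4, first of a touching pair, chr11:77966403-77966600: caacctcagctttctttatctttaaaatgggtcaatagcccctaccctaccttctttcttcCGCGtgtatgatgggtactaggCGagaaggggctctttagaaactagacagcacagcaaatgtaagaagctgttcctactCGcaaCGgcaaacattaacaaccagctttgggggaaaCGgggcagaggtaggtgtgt
All 7 were higher in Wt25. They held between 2 and 8 CpG, and within the dense group a CpG-rich DhMR could lie close to one with few: the second and the third of these stretches hold 8 and 2 CpG.

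*Sez6l* (ENSMUSG00000058153, chr5:112419151-112577185, minus strand, 158035 bp) held 38 DhMRs higher in Wt25 and 0 higher in AA10. Over the genome, 0.0914% of 200 bp bins without unknown bases were listed for Wt25 and 0.0652% for AA10. Inside *Sez6l*, 4.82% of its 789 bins were listed for Wt25 (95% Wilson interval 3.53 to 6.54%, which covers the number of bins only), 52.7 times the genome share. For AA10 the 0 of 789 bins allow a share of up to 0.485%. DhMRs that follow each other without a free bin are not independent, and joining them left 23 regions in the gene.

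The DhMRs were not spread evenly along *Sez6l*. In the transcript used for exon numbers, with 17 exons, 35 of the 38 lay in intron 1, which spans 101185 bp or 64.0% of the gene. Intron 9 held 2, with 5 and 10 CpG, and the last exon held 1, in the 3′ untranslated region, with 8 CpG. The other 14 introns held none. The deposited list gave the 2 in intron 9 the ID of *Gm6588* and the one in the last exon that of *Asphd2*. The 35 in intron 1 carried the ID of *Sez6l*. No DhMR had its midpoint in coding sequence of *Sez6l*. The DhMR nearest to the lower end of the gene on chr5, where the transcript ends, was the one in the last exon, and the next one beyond that end stood 6150 bp outside the gene. At the other end, the last DhMR inside stood 1185 bp from the start site and the first one outside stood 1017 bp beyond the last base of the gene.

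**Figure D1:**
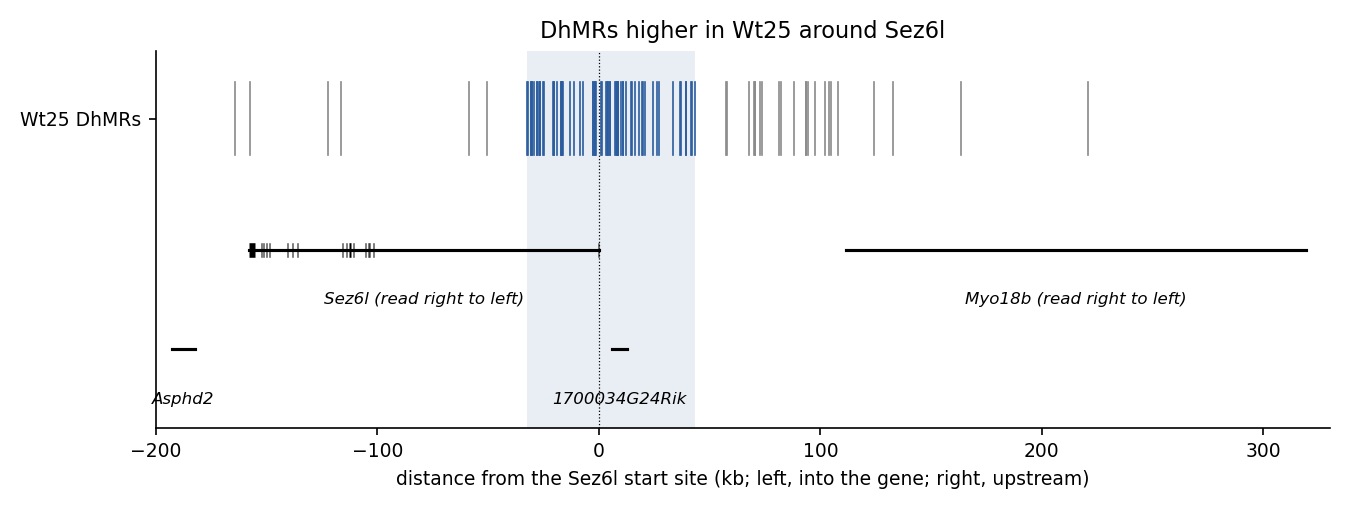
Positions of Wt25 DhMRs (vertical ticks, top) and genes (lines; *Sez6l* exons as boxes) by distance in kb from the *Sez6l* start site at 0, with the gene to the left and upstream sequence to the right. Blue ticks and shading mark the dense group of 70 DhMRs, which runs from 32382 bp inside *Sez6l* to 43415 bp upstream of it; there is no AA10 DhMR in the range drawn.

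A dense group was taken as 20 or more successive DhMRs higher in the same line, each within 10000 bp of the next. At *Sez6l* it had 70 DhMRs between chr5:112544803-112620600, a span of 75798 bp, and 18.5% of its 379 bins were listed (14.9 to 22.7%). *Sez6l* thus held only 33 of the 70, all in intron 1, and the other 37 lay upstream of its start site. The group reached 32382 bp into the gene and 43415 bp upstream of it, and began 125652 bp above the lower end of *Sez6l*. Listed bins made up 20.5% of the 161 bins on the gene side (15.0 to 27.4%) and 17.1% of the 217 bins on the upstream side (12.6 to 22.6%), so the 2 intervals overlapped. In the remaining 125652 bp of *Sez6l*, 5 of 628 bins were listed, or 0.796% (0.341 to 1.85%). The group was defined by closely spaced DhMRs, so a higher share inside it than outside follows from the definition. The intervals cover the number of bins only, and this contrast was not tested. The group held 0 AA10 DhMRs, and the nearest of these were 338002 bp below it and 534002 bp above it.

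Inside the group the median gap between neighbours was 402 bp and the largest was 6202 bp. There were 27 touching pairs, and joining them gave 43 regions, of which 29 were a single DhMR, 7 were pairs, 3 were triplets and 4 held more. The longest held 6 DhMRs over 1198 bp, chr5:112585003-112586200, and began 7818 bp upstream of the *Sez6l* start site. It lies within *1700034G24Rik*, a long non-coding RNA gene (chr5:112582936-112589996, minus strand) of which 11 of 34 bins were listed. The deposited IDs divided the group between 41 DhMRs given to *Sez6l* and 29 given to *1700034G24Rik*, and none carried another gene's ID.

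Each border is the point past which no DhMR follows within 10000 bp, so the first 10 kb outside it are empty by definition. In 10 kb steps from the border inside the gene towards the start site, 14, 10 and 5 of 50 bins were listed in each step, and in the second and the third step away from it, deeper into *Sez6l*, 1 and 1 were listed. The free stretch beyond this border was 18002 bp. At the upstream border, the steps inside the group held 8, 3 and 7 DhMRs and the second and the third step outside it held 2 and 5. The free stretch there was 14002 bp, after which a further 19 DhMRs followed over 50598 bp (chr5:112634603-112685200, 7.51% of bins). That second stretch ended 3675 bp before *Myo18b*, a gene of an unconventional myosin, which held 4 Wt25 DhMRs in 1036 bins and 0 for AA10. With this definition, the borders fell within intron 1 on one side and between genes on the other. They moved with the gap allowed. At 5000 bp the lower border stayed and the upper one stood 27215 bp upstream of the start site. At 2000 bp the group shrank to 18 DhMRs, all upstream of *Sez6l* (chr5:112584603-112598200), and its lower border lay in *1700034G24Rik*. At 20000 bp it took in 93 DhMRs (chr5:112518603-112710400), and its upper border lay inside *Myo18b*.

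The start site of the GENCODE gene model, used throughout, was free of DhMRs. Between the last DhMR below it and the first one above it lay 2202 bp with 11 unlisted bins. These bins held 10.5 ± 7.58 CpG (SD, n = 11 bins) at a GC content of 61.4%, and 8 of the 11 had at least 5 CpG. All 309 unlisted bins of the group together held 2.75 ± 2.89. Gaps larger than this one occurred 7 times in the group, so a free stretch of this length was not particular to the start site. The DhMR on the upstream side of the gap falls inside the longer gene model of RefSeq, which ends at 112578535. The next DhMR, chr5:112578403-112578600, covers that end, which is the start site of the RefSeq model. Whether the start site was free of DhMRs thus depended on the gene model.

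**Figure D2:**
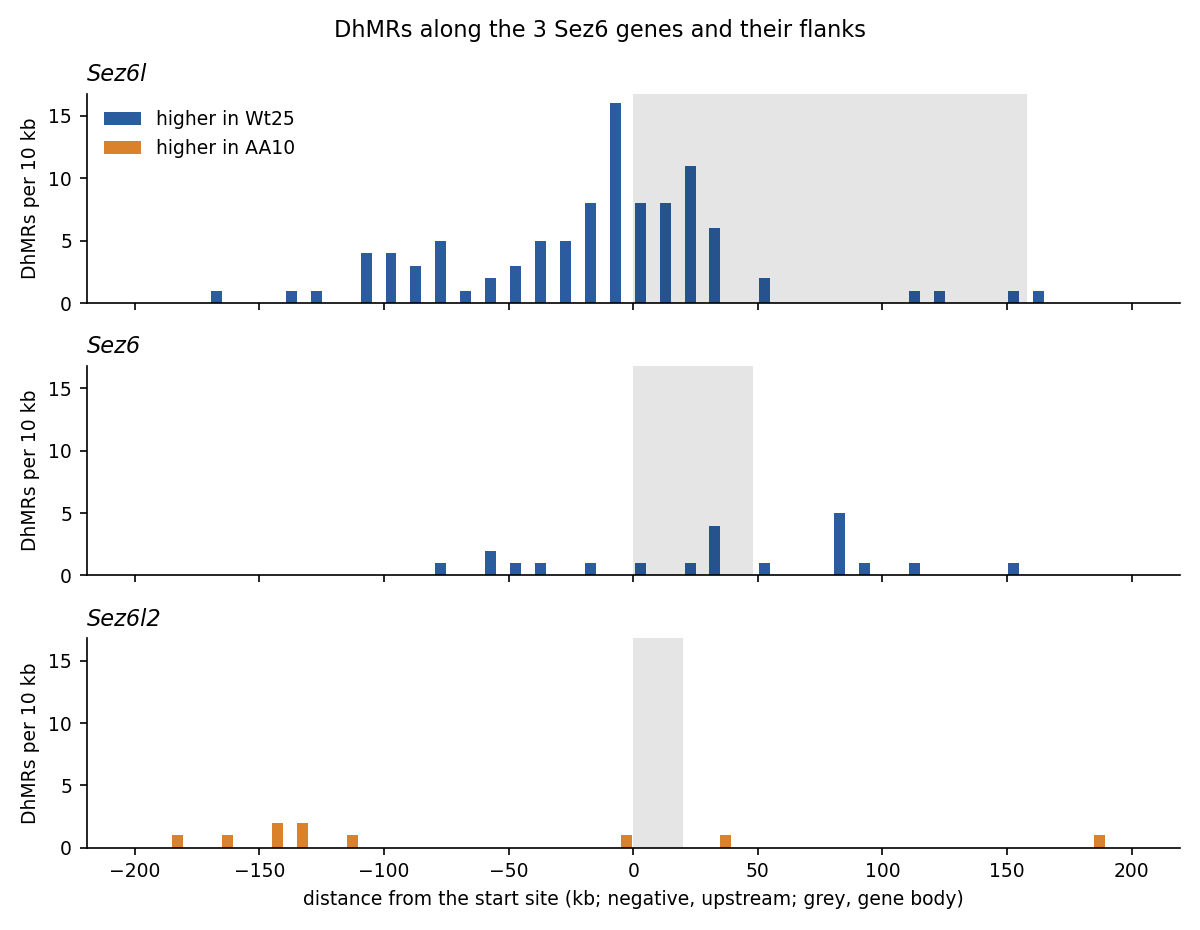
DhMRs per 10 kb (bars; blue, higher in Wt25; orange, higher in AA10) by distance in kb from the start site of each gene, with negative values upstream and the gene body in grey. *Sez6l* reaches 16 in the step upstream of its start site, *Sez6* has at most 5 in any step, and around *Sez6l2* there are AA10 DhMRs alone.

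*Sez6* (ENSMUSG00000000632, chr11:77930800-77979048, plus strand, 48249 bp) held 6 Wt25 DhMRs and 0 AA10 DhMRs in 241 bins. Its Wt25 share was 2.49% (1.15 to 5.32%), 27.2 times the genome share, and its interval overlapped that of the whole of *Sez6l*. For AA10 the 0 of 241 bins allow up to 1.57%. From the start site, the midpoints stood at 3101 bp in intron 1, 23101 bp in exon 2, 30101 bp in intron 3, 35701 and 35901 bp in intron 4, and 39901 bp in intron 5. They held 2, 3, 3, 6, 5 and 3 CpG in that order. The DhMR in exon 2 lies wholly in coding sequence. The pair in intron 4 was the only touching one, so 5 regions remained after joining, and no dense group was found. Although all 6 lie inside *Sez6*, the deposited list gave 4 of them the ID of *Phf12*, which codes for a PHD finger protein and starts 3705 bp past *Sez6*. The other 2 carried the ID of *Sez6*.

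*Sez6l2* (ENSMUSG00000030683, chr7:126950563-126970606, plus strand, 20044 bp) held 0 DhMRs of either direction in 100 bins, which allows up to 3.70%. A share as high as that of *Sez6* was therefore within what 0 of 100 bins allows. The nearest Wt25 DhMRs were 1276362 bp below and 642996 bp above the gene, whereas the nearest AA10 DhMRs were 8962 bp below and 10796 bp above it. Of 8053 protein-coding genes between 0.5 and 2 times its length, 88.3% had no Wt25 DhMR and 91.4% had no AA10 DhMR, so a gene of this size without one was common.

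The surroundings of the 3 genes were described in the same way. In the 100 kb upstream of *Sez6l*, 52 of 499 bins (10.4%) were listed for Wt25, and in the 100 kb downstream 4 were. The flanks of *Sez6* held 6 upstream and 8 downstream, or 1.20% and 1.60% of their bins. Both were above the 0.0914% of the genome, so a share above it was not particular to *Sez6*. No AA10 DhMR lay in these 4 flanks. *Sez6l2* had 0 Wt25 DhMRs in both flanks and 1 AA10 DhMR in each, or 0.200% of the bins, against 0.0652% over the genome. Counts this small do not establish a direction. The genes next to *Sez6l* on its lower side were *Asphd2*, an aspartate beta-hydroxylase domain gene, and *Hps4*, needed for lysosome-related organelles. Counted by gene span alone, as for all neighbours here, *Asphd2* held 0 DhMRs and *Hps4* held 2 for Wt25. The ID of *Asphd2* was given to the DhMR in the last exon of *Sez6l* and to the one 6150 bp outside that gene. On the other side of *Sez6l* stood *1700034G24Rik*, above, and the non-coding *Gm27004*, with 0. Next to *Sez6*, *Phf12* held 7 Wt25 DhMRs in 238 bins, *Pipox*, a peroxisomal oxidase gene, held 2, the non-coding *Gm11190* held 1 and *Dhrs13os* held 0. Next to *Sez6l2*, *Kctd13*, which encodes an adaptor of a ubiquitin ligase, held 1 AA10 DhMR, and *Asphd1*, *Cdiptos* and *Cdipt* held 0 of either direction. The neighbours are partly paralogous, since *Myo18b* and *Asphd2* at *Sez6l* have relatives in *Myo18a* near *Sez6* and *Asphd1* beside *Sez6l2*. *Myo18b* and *Myo18a* were named after their values were seen, and *Myo18a* held 1 Wt25 DhMR in 512 bins and 0 for AA10.

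The DhMRs were next set against the sequence of the bins that were not listed. The 38 DhMRs in *Sez6l* held 3.84 ± 2.43 CpG (SD over DhMRs) and its 751 unlisted bins 2.73 ± 2.35. The 6 in *Sez6* held 3.67 ± 1.51 and its 235 unlisted bins 3.06 ± 3.59. The 100 bins of *Sez6l2* held 2.68 ± 2.68, close to the unlisted bins of *Sez6l*. Over the genome the mean was 1.63 CpG per bin, and over all Wt25 DhMRs 3.25 ± 2.52. Within the dense group, the 70 DhMRs held 2.97 ± 2.06 CpG and the 309 unlisted bins 2.75 ± 2.89. On its gene side the values were 3.61 ± 2.18 in 33 DhMRs and 3.07 ± 3.00 in 128 unlisted bins, and on its upstream side 2.41 ± 1.79 in 37 DhMRs and 2.44 ± 2.61 in 180 unlisted bins. Sequence marked as repeat made up 17.5% of the DhMRs of the group and 25.5% of its unlisted bins, against 30.8% of all Wt25 DhMRs. On the gene side of the group the repeat share was 11.5% in the DhMRs and 23.2% in the unlisted bins. On the upstream side it was 22.9% in the DhMRs and 27.2% in the unlisted bins.

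In the genome as a whole the share of bins listed for Wt25 was higher with each further CpG, from 0.00126% of bins without CpG to 0.298% of bins with at least 5. In the dense group, 0 of 51 bins without CpG were listed, which allows up to 7.00%. With 1 CpG 22.6% were listed (15.0 to 32.6%), with 2 CpG 26.4%, with 3 CpG 18.2%, with 4 CpG 14.0% (6.56 to 27.3%), and with at least 5 CpG 22.2% (13.7 to 33.9%). The intervals of these 5 classes overlapped, so within the group no order by CpG number could be made out among bins that had any CpG. In *Sez6l* outside the group, 3 of 114 bins with at least 5 CpG were listed.

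**Figure D3:**
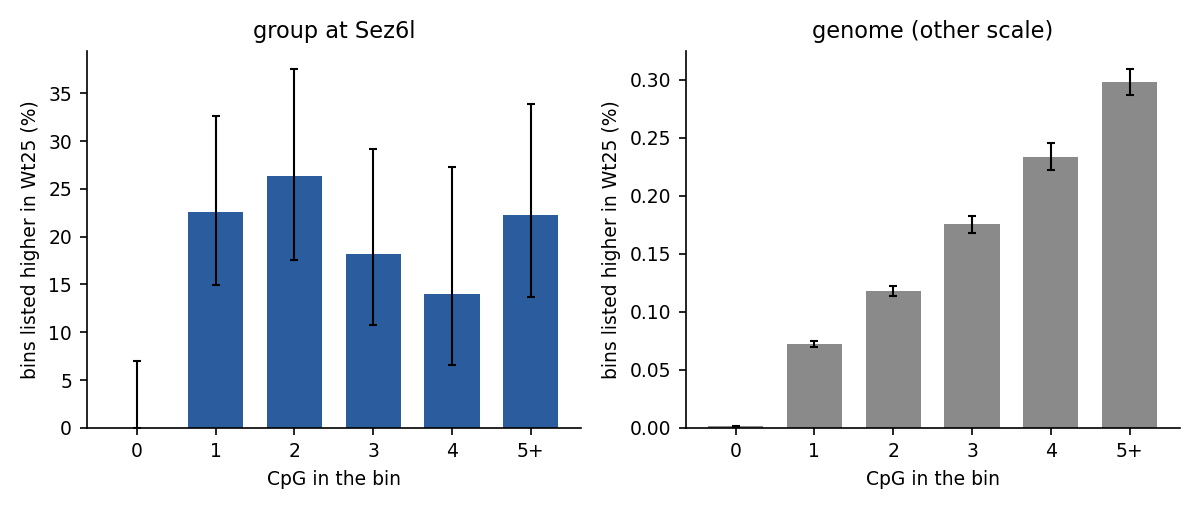
Share of 200 bp bins listed as higher in Wt25 (%), by the number of CpG in the bin, for the dense group at *Sez6l* (left) and the genome (right, on another scale), with 95% Wilson intervals as error bars. The genome's bars rise to 0.298% at 5 or more CpG, while in the group the classes with any CpG lie between 14.0% and 26.4% with overlapping intervals.

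Because the authors kept only reads that aligned to 1 place, copies of a sequence elsewhere bear on what can be listed. All stretches of 32 bases in the DhMRs were counted on both strands of the assembled chromosomes. In the dense group, 61 of 70 DhMRs had every such stretch at 1 place only, and 97.4% of all its stretches were found once. The DhMR with the lowest share had 46.1% found once. All 6 DhMRs of *Sez6* consisted entirely of stretches found once. Copies were not counted for unlisted bins or for the other DhMRs of the lists. These shares therefore have no background and do not show a trait of these genes.

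Among protein-coding genes of at least 50 kb, *Sez6l* stood at rank 10 of 5007 by its share of Wt25 bins, and 70.3% of these genes had none. The 5 genes at the top were *Sae1*, a subunit of the SUMO-activating enzyme, with 23.4% (79 DhMRs), the zinc finger gene *Zfp934* with 18.2% (83), *Ganc*, an alpha-glucosidase gene, with 15.6% (45), *Zfp935* with 14.3% (75) and the lipase gene *Lipo3* with 8.23% (85). *Zfp934* and *Zfp935* overlap and share DhMRs. None of the 5 held an AA10 DhMR, as was the case for *Sez6l*. Holding none was common: 74.0% of genes of 0.5 to 2 times the length of *Sez6l* had no AA10 DhMR. For genes of 0.5 to 2 times the length of *Sez6* the share was 86.3%. *Sez6* and *Sez6l2* are shorter than 50 kb. Among the 10159 genes of at least 20 kb, *Sez6l* stood at rank 31, *Sez6* at rank 95, and *Sez6l2* among the 77.8% without a Wt25 DhMR. Of 2707 genes of 0.5 to 2 times the length of *Sez6l*, 0.148% held at least as many Wt25 DhMRs, and for *Sez6* the share was 1.07% of 6460. The genes were chosen on these DhMRs, so the ranks and shares are descriptions and were not tested. Of the 27 dense groups of Wt25 DhMRs in the genome, the one at *Sez6l* was the seventh by number of DhMRs, with 7.07% of the 990 on chromosome 5.

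**Figure D4:**
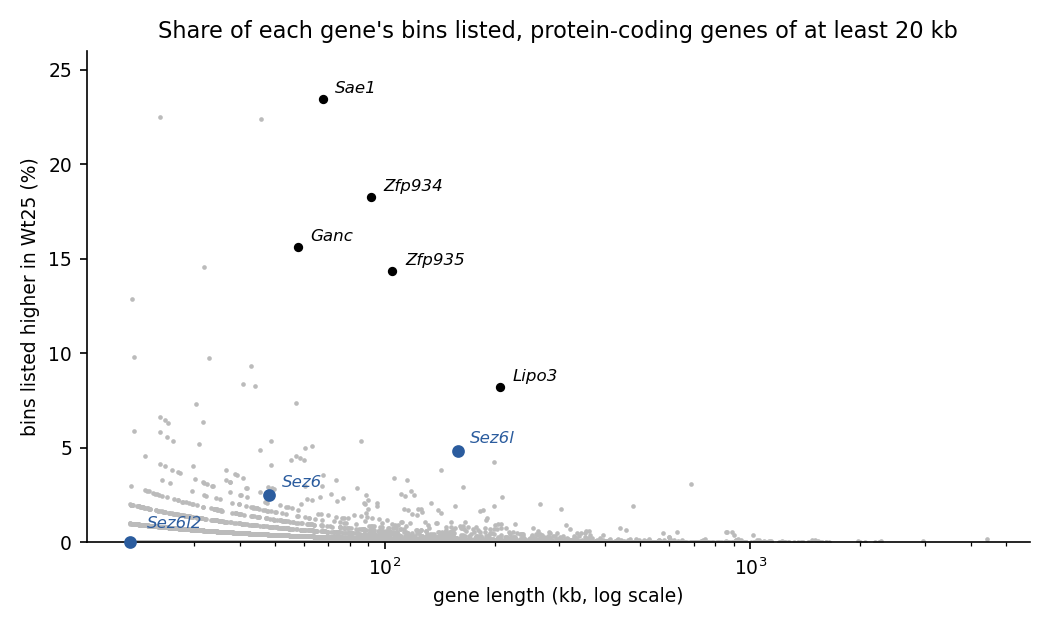
Share of each gene's 200 bp bins listed as higher in Wt25 (%) against gene length (kb, log scale), 1 point for each protein-coding gene of at least 20 kb. *Sez6l* lies at 4.82%, *Sez6* at 2.49% and *Sez6l2* at 0 (blue), and the 5 genes of at least 50 kb with the highest shares are in black.

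A list of other CUB or sushi domain genes, without the *Sez6* family itself, was also counted. Of its 19 genes, 5 held a Wt25 DhMR (26.3%) and 4 an AA10 DhMR (21.1%). There were 10 DhMRs and 0.0459% of bins for Wt25, and 9 DhMRs and 0.0413% of bins for AA10. Over all 21938 protein-coding genes, 13.2% held a Wt25 DhMR and 9.89% an AA10 DhMR, with 0.128% and 0.0800% of bins. Of the very long *Csmd* genes, which encode membrane proteins of many CUB and sushi domains, *Csmd1* held 2 for Wt25 and 3 for AA10, *Csmd2* held 3 and 1, and *Csmd3* held 1 and 0. Of the sushi domain genes, *Susd4*, a complement inhibitor, held 3 for Wt25, *Susd2* held 1 for Wt25, *Susd3* held 1 for AA10 and *Susd6* held 4 for AA10. The other 12 genes held none.

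A list of 15 genes for BACE1, its relative BACE2 and proteins cut by BACE1 also left out the *Sez6* family. Of these, 5 held a Wt25 DhMR and 4 an AA10 DhMR, or 33.3% and 26.7% against the 13.2% and 9.89% of all protein-coding genes. By bins the order was the other way round, with 0.0362% and 0.0207% listed against 0.128% and 0.0800%. *Bace1* itself, the beta-secretase gene, held 2 for Wt25, and *App*, the amyloid precursor gene, held 2 for Wt25. *Aplp2*, a relative of *App*, held 1 in each direction, as did the growth factor gene *Nrg1* and *Cachd1*, and *Plxdc2* held 1 for AA10. The other 9 genes held none.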

How the data were processed

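The data were 5hmC-DIP libraries of Wt25 and AA10 ESCs, with 3 of each line. The authors aligned reads to GRCm38 with STAR, keeping unique alignments, removed duplicates with Picard and compared the lines with MEDIPS in 200 bp bins at *P* under 0.05 and at least 1-fold. They then removed bins overlapping IgG-DIP peaks by at least 1 bp or holding tandem repeats or low complexity sequence, and added genes with HOMER. Versions are not given in the sources used here. The deposited lists give 1 chromosome, start, end and gene ID per DhMR, without counts, fold changes or *P*-values, and pool the replicates. A removed bin cannot be told from one that did not differ. Filtering by mapping and by repeats acts on bins by their sequence.

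Bins are listed as 198 bp of a 200 bp grid, and all shares count bins without unknown bases. Gene spans and exons came from GENCODE vM21 and, as an alternative, RefSeq. Sequence, CpG and repeat marks came from GRCm38.p6. Intervals are 95% Wilson intervals. Runs, counts and 32-base matches were tested on simulated data. Python 3.11.15, numpy 2.4.6, scipy 1.17.1 and matplotlib 3.10.9 were used. The members and the gene lists were chosen with earlier results of these data known. The genes named were the 3 members, their 2 nearest genes on each side and each gene of the 2 lists with a DhMR. Also named were the 5 genes of at least 50 kb with the highest Wt25 share. *Myo18b* and *Myo18a* were added after their values were seen, and *Gm6588* for its deposited ID. The alternatives were other gene spans, overlap rules, gaps, joined DhMRs, repeat and CpG filters, and gene length limits. Libraries of H3K27ac, MNase, mRNA and genomic DNA were not analysed here, and 1 gene left out of the CUB and sushi domain list is not reported here.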

Additional observations from a re-analysis of the deposited data

How the results depend on the processing

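Of 67 values computed under another setting, 56 stayed within set limits (1.5 times for a count or rank, the 95% interval for a share, 1 SD for a mean) and 11 did not. Within the limit, the *Sez6l* count reached 54 with the span widened by 10 kb. The count of Wt25 DhMRs in *Sez6l* went from 38 to 23 with touching DhMRs joined and to 16 with those within 1 kb joined. In *Sez6* it went from 6 to 2 when the deposited gene ID was used in place of the gene span, and in *Sez6l2* the AA10 count went from 0 to 1 when the span was widened by 10 kb. The dense group went from 70 to 18 DhMRs, all of them upstream of *Sez6l*, at a largest gap of 2000 bp, and had 62, 93 and 94 at 5000, 20000 and 50000 bp. At 20000 bp it ran from chr5:112518603-112710400 and took in the second stretch. With at least 2 DhMRs required, the CUB and sushi domain genes went from 5 to 3 for Wt25 and from 4 to 2 for AA10, and the BACE1 genes from 5 to 2 and from 4 to 0. *Sez6l* stood at rank 10 among genes of at least 50 kb, 31 at 20 kb and 3 at 100 kb.

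No paired analysis was possible because the lists pool the replicates and the results come from no test. For the same reason no replicate was left out, and the reads behind each DhMR are unknown, which leaves no stricter threshold to set, and a bin outside the lists does not show equal 5hmC.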
